A study of Mus musculus with 6 samples.

Results

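Ribosome biogenesis genes were followed here as 48 named genes, matched by gene symbol in the deposited tables of gene counts and splice junction counts. All 48 were found among the 13932 genes of the count table and all 48 passed the filter on low counts, which left 13905 genes. Of the 48, 47 had reads in the junction table, with 853 of its 151811 junctions. Imp3 had none. The members were grouped by role: 6 act in RNA polymerase I transcription, 7 are nucleolar organisers and chaperones, 3 belong to the box C/D and 4 to the box H/ACA small nucleolar ribonucleoproteins (snoRNPs), 16 act in the small subunit processome and 40S maturation, and 12 in large subunit assembly.

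The libraries came from mouse common myeloid progenitors, the bone marrow precursors of granulocytes, monocytes, red cells and platelets, sorted as lineage-negative, c-Kit+, Sca-1-, CD34+, Fcgamma- cells. Recipient mice carried transplanted marrow with U2AF1(S34F)/rtTA in one group and U2AF1(WT)/rtTA in the other. In both groups an rtTA transactivator switches on the U2AF1 transgene when doxycycline is given, so the WT cells carried rtTA and a wild-type transgene and received doxycycline chow for 5 days too, more than 6 weeks after transplantation. Each genotype had 3 libraries, each a pool of marrow from 4 to 5 mice, so the values describe pools and not single animals. Genotype was taken from the sample titles, because the genotype tag names S34F for all 6 samples. U2AF1 is the small subunit of the U2AF splicing factor, which binds the AG at the end of introns, and S34F is a substitution found in myelodysplastic syndromes.

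Ribosomes are built in the nucleolus. RNA polymerase I copies the ribosomal DNA into a long precursor, snoRNPs guide methylation and pseudouridylation of its bases, and a large set of assembly factors fold, cut and escort the pre-40S and pre-60S particles to the cytoplasm. Most genes of this set are induced together in proliferating cells, and Myc is a well-known activator of many of them. Inherited defects in several members, such as Sbds and Dkc1, cause bone marrow failure. A second link to the genotype lies in splicing: U2AF1 contacts the base just before the AG, at intron position -3, and S34F is known to shift acceptor choice according to that base.

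Total gene counts ranged from 46827909 to 94562984 per library and total junction counts from 41003848 to 82730420. The 2 genotypes differed in depth, with every S34F total below every WT total. Normalised levels are given in CPM, counts scaled to the library total with TMM factors. The mouse U2af1 gene stood at 126 ± 9.13 CPM in S34F and 119 ± 12.6 in WT (SD, n = 3), a level that does not check the transgene or the labels. Cd34 was at 695 to 868 CPM in S34F and 796 to 904 in WT, Kit at 149 to 192 and 92.4 to 209, and Ly6a (Sca-1) at 1.08 to 1.44 and 1.10 to 1.84. Markers of other cells differed with genotype. All 7 dendritic cell markers were tested and 6 were lower at an unadjusted p under 0.05, with a summed level of 46.6 to 94.8 CPM in S34F and 153 to 328 in WT and none at 0 in a whole group. The 4 erythroid markers tested summed to 11.9 to 15.5 against 17.5 to 25.6 CPM and the 3 megakaryocyte markers to 78.0 to 108 against 120 to 161 CPM. Nearly all of the latter was Itga2b (88.3 ± 16.3 against 132 ± 18.5 CPM, SD, n = 3), while Pf4 (4.03 ± 0.350 against 3.92 ± 1.59 CPM) and Gp9 overlapped. The 5 lymphoid markers (55.3 to 73.9 against 40.9 to 71.5 CPM) and the 4 neutrophil markers (250 to 339 against 240 to 352 CPM) overlapped. The part of these cells in the differences below was not tested, and in pooled sorted cells a change in cell mixture and a change per cell cannot be told apart. WT replicate 1 stood apart from the other WT libraries in many members, and WT replicate 3, the deepest library, had no read for 9866 junctions, more than any other library (4070 to 6485). Fold changes and calls without WT replicate 1 are given beside several members, most of which moved up. Among the others, the log2 fold change of Nol6 went from 0.15 to 0.41 without that library. It moved down in Nop10 (-0.10 to -0.27), Nop14 (-0.09 to -0.24) and Utp14a (-0.19 to -0.33).

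At the gene level no member passed the main test, edgeR's quasi-likelihood test with Benjamini-Hochberg adjustment over 13905 genes, which called 0 genes in all (0% of the genes tested). At an unadjusted p under 0.05, 5 of the 48 members (10.4%) were higher in S34F against 4.39% of all genes, and 0 were lower against 4.7%. In either direction 9.1% of all genes passed that p. In 10 members (20.8%) every S34F library lay above every WT library, a pattern found in 7.16% of all genes. In 2 members (4.17%) every S34F library lay below, against 8.47%. The remaining 36 members overlapped between genotypes. The median log2 fold change was 0.06 over the members and -0.01 over all genes tested, with 29 members above 0 and 19 below. DESeq2 called 34 genes higher (0.244%), of which 1, Ncl, was a member.

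**Figure D1:**
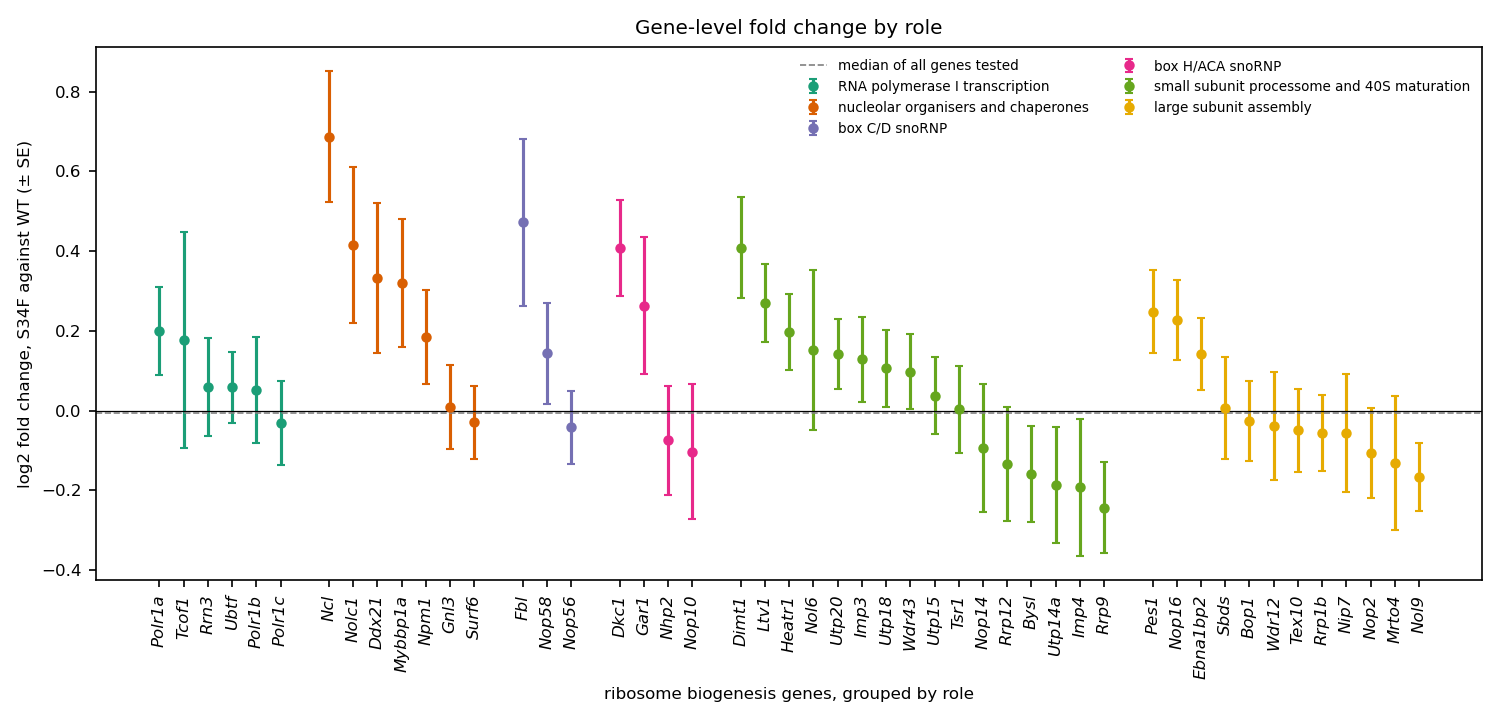
Log2 fold change of each of the 48 genes, S34F against WT, with its standard error from edgeR (6 libraries), grouped and coloured by role. The nucleolar organisers hold the highest value, Ncl at 0.69, and the large subunit group spans both sides of 0, down to -0.17 for Nol9.

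Summed over the 48 members, the level was 9002, 8585 and 8285 CPM in the S34F libraries and 7560, 7570 and 7869 in the WT libraries. The groups did not overlap. Ncl and Npm1 held much of the gap. Without them the sums were 5969, 5856 and 5627 CPM in S34F against 5429, 5288 and 5626 in WT, so the lowest S34F and the highest WT library were nearly equal.

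Per kilobase of exon, Npm1 was the most abundant member at 647 CPM per kb (mean of the genotype means), followed by Nop10 at 133 and Nop58 at 129. Npm1 encodes nucleophosmin, a histone and ribosomal protein chaperone of the outer nucleolus. Dimt1 was the lowest at 7.31 CPM per kb, after Bysl at 8.39 and Gar1 at 8.81. The order of these levels spans a range far wider than any difference between genotypes.

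None of the RNA polymerase I members had separate groups. The median log2 fold change of the 6 genes was 0.06, and the lowest adjusted p was 0.587 (edgeR). Polr1a, the largest subunit of the polymerase, had the lowest p of the group, with 169, 169 and 164 CPM in S34F and 166, 130 and 141 in WT (log2 fold change 0.20 ± 0.11 SE, adjusted p = 0.587 by edgeR). WT replicate 1 lay among the S34F libraries and the other WT libraries lay below. Without it the log2 fold change of Polr1a was 0.31 (adjusted p = 0.0690 by edgeR, 0.0044 by DESeq2). Leaving out the WT library nearest to S34F widens the difference by construction. Those fits called 8.42% (edgeR) and 21.4% (DESeq2) of all genes. Ubtf, which encodes the upstream binding factor UBF that opens ribosomal DNA for transcription, had 232, 216 and 229 CPM in S34F and 220, 205 and 226 in WT (log2 fold change 0.06 ± 0.09 SE, adjusted p = 0.821). The Ubtf groups overlapped. Tcof1 encodes treacle, a nucleolar scaffold for UBF and the polymerase, and had the widest spread of any member among WT libraries, at 110, 48.1 and 68.5 CPM, against 94.1, 75.5 and 86.0 in S34F. Its log2 fold change was 0.18, and 0.55 without WT replicate 1 (adjusted p = 0.0949 by edgeR, 0.0172 by DESeq2). That library was above every S34F library in Tcof1, so the same limit holds. No other fit with a library left out called Polr1a or Tcof1.

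The nucleolar organisers held the largest difference. Ncl encodes nucleolin, an abundant RNA-binding protein that acts from ribosomal DNA transcription to early processing. It stood at 1114, 858 and 946 CPM in the S34F libraries and at 742, 535 and 535.5 in the WT libraries. Every S34F library was above every WT library, and WT replicate 1 was the highest of the WT libraries. The log2 fold change was 0.69 ± 0.16 SE (unadjusted p = 0.00342, adjusted p = 0.538 by edgeR), and DESeq2 gave an adjusted p of 0.0247. In the authors' deposited table of gene tests, 1 of the 48 members, Ncl, passed an adjusted p of 0.05 (2.08%), against 86 of 13643 genes (0.63%). The DESeq2 call was lost without S34F replicate 1 (adjusted p = 0.325), S34F replicate 3 (0.132), WT replicate 2 (0.211) or WT replicate 3 (0.370). Without WT replicate 1 edgeR called Ncl too, with an adjusted p of 0.0129 and a log2 fold change of 0.86. That fit called 8.42% of all genes and leaves out the WT library nearest to S34F. The Ncl locus holds 3 annotated snoRNA genes inside it (SNORD20, Snora75 and Snord82).

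Npm1 stood at 1919, 1871 and 1713 CPM in S34F and at 1388, 1747 and 1707 in WT. The groups overlapped, with WT replicate 1 below all other libraries, and the log2 fold change was 0.18 ± 0.12 SE (adjusted p = 0.622 by edgeR), or 0.09 without that library. In Nolc1, Mybbp1a and Ddx21, WT replicate 1 lay with the S34F libraries. Nolc1, which encodes the snoRNP chaperone Nopp140, had 207, 154 and 192 CPM in S34F and 178, 109 and 128 in WT. Mybbp1a, a nucleolar Myb-binding protein gene, had 287, 264 and 298 CPM in S34F and 281, 180 and 220 in WT. Ddx21, an RNA helicase gene, had 289, 204 and 264 against 248, 161 and 192. These genes overlapped between genotypes, with log2 fold changes of 0.42, 0.32 and 0.33. Without WT replicate 1 the values were 0.64 for Nolc1, 0.50 for Mybbp1a and 0.52 for Ddx21, and DESeq2 then called all of them (adjusted p = 0.000669, 0.00065 and 0.0171), in a fit that called 21.4% of all genes. Gnl3, which encodes nucleostemin, a GTPase of stem and proliferating cells, had 190, 176 and 167 CPM in S34F and 157, 182 and 189 in WT (log2 fold change 0.01 ± 0.11 SE), and Surf6 also overlapped (log2 fold change -0.03).

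**Figure D2:**
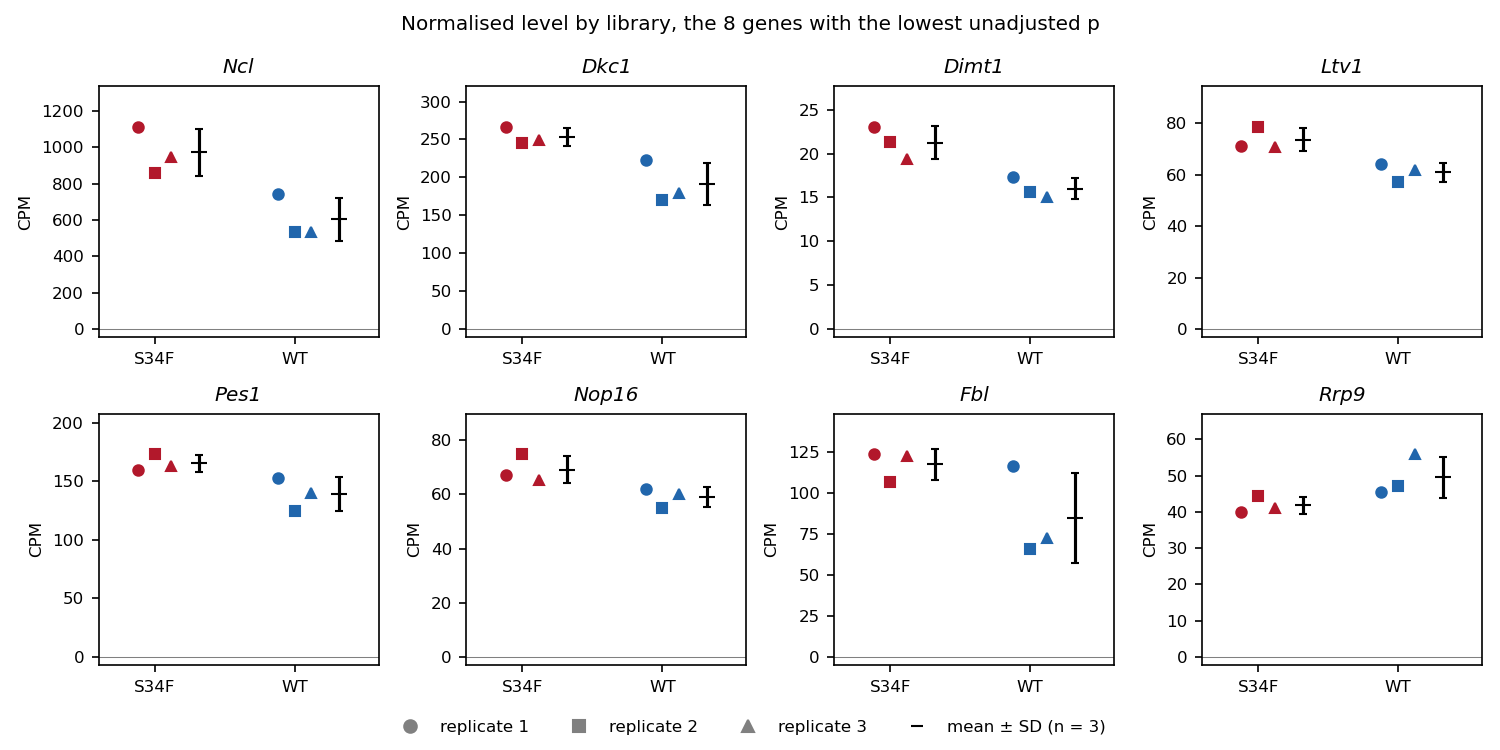
CPM (y axis, 0 included) in each of the 3 S34F and 3 WT libraries for the 8 genes with the lowest unadjusted p, with marker shapes for replicate numbers and black bars for mean ± SD (n = 3). In Ncl, Dkc1, Dimt1, Ltv1, Pes1 and Nop16 all S34F libraries lie above all WT libraries, in Rrp9 they lie below, and in Fbl WT replicate 1 (117 CPM) lies among the S34F libraries.

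Among the box C/D proteins, which carry out 2'-O-methylation of ribosomal RNA, Fbl encodes the methyltransferase fibrillarin. Fbl had 123.9, 106.9 and 122.8 CPM in S34F and 117, 65.7 and 72.7 in WT. WT replicate 1 lay between the S34F libraries, and the other WT libraries were below all of them. The log2 fold change was 0.47 ± 0.21 SE (adjusted p = 0.552 by edgeR). Without WT replicate 1 the log2 fold change of Fbl was 0.77 and the adjusted p 0.0113 by edgeR. That fit called 8.42% of all genes and leaves out the WT library that lay with S34F. No other fit with a library left out called Fbl. Nop58, a scaffold of the particle, had 378, 361 and 312 CPM in S34F and 277, 358 and 316 in WT (log2 fold change 0.14 ± 0.13 SE), and its partner Nop56 had a log2 fold change of -0.04. Both overlapped between genotypes. Nop58 and Nop56 each hold 4 annotated snoRNA genes.

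Among the box H/ACA proteins, which carry out pseudouridylation and also bind telomerase RNA, Dkc1 encodes the pseudouridine synthase dyskerin. Dkc1 had 267, 245 and 249 CPM in S34F and 223, 171 and 180 in WT, with no overlap (log2 fold change 0.41 ± 0.12 SE, unadjusted p = 0.0103, adjusted p = 0.538 by edgeR). DESeq2 gave an adjusted p of 0.186 for it. Its partners are small core proteins of the same particle. Gar1 had 18.03, 15.53 and 15.82 CPM in S34F and 15.8, 10.7 and 14.6 in WT, Nop10 had 148, 153 and 127 against 115, 172 and 172, and both overlapped. The log2 fold changes of Gar1, Nop10 and Nhp2 were 0.26, -0.10 and -0.07. The difference between Dkc1 and its partners was not tested.

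The small subunit group split in both directions. Of its 16 genes, 5 had all S34F libraries above all WT libraries (Dimt1, Ltv1, Heatr1, Utp20 and Imp3; 31.3% against 7.16% of all genes) and 1 had all below (Rrp9; 6.25% against 8.47%), and the group's median log2 fold change was 0.07. Dimt1 encodes the enzyme that dimethylates adenines near the 3' end of 18S rRNA. Dimt1 had 23.1, 21.3 and 19.3 CPM in S34F and 17.3, 15.7 and 15.0 in WT (log2 fold change 0.41 ± 0.13 SE, unadjusted p = 0.0127, adjusted p = 0.538 by edgeR). Ltv1, a factor removed late in 40S maturation, had 71.2, 78.7 and 70.7 CPM in S34F and 64.2, 57.0 and 61.8 in WT (log2 fold change 0.27 ± 0.10 SE, unadjusted p = 0.0254). Both showed every S34F library above every WT library.

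Rrp9, a protein of the U3 snoRNP, went the other way, with 39.9, 44.3 and 41.1 CPM in S34F and 45.55, 46.99 and 55.86 in WT (log2 fold change -0.24 ± 0.11 SE, adjusted p = 0.565 by edgeR). The highest S34F and lowest WT library differed by little. Rrp12, which takes part in export of the pre-40S particle, had 70.7, 70.5 and 70.2 CPM in S34F and 74.8, 63.7 and 93.5 in WT. The S34F libraries of Rrp12 were nearly identical and WT spread on both sides of them. Bysl, a 40S maturation factor, had 31.0, 31.6 and 29.1 CPM in S34F and 36.6, 29.5 and 36.2 in WT, and overlapped. In this group Rrp9, Bysl, Dimt1 and Tsr1 each overlap another deposited gene on the opposite strand, as do Dkc1, Gnl3, Mybbp1a, Nop56, Nhp2, Wdr12, Bop1 and Tex10 in the others, and whether counting used strand is not stated in the sources used here.

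The large subunit group was centred slightly below 0, with a median log2 fold change of -0.04 over 12 genes. Pes1, a core subunit of the PeBoW complex that processes the 28S precursor, had 160, 173 and 163 CPM in S34F and 153, 124 and 140 in WT (log2 fold change 0.25 ± 0.10 SE, unadjusted p = 0.0457, adjusted p = 0.548 by edgeR). The groups of Pes1 did not overlap. The other PeBoW subunits, Bop1 and Wdr12, overlapped between genotypes, with log2 fold changes of -0.03 and -0.04. Nop16 had 67.3, 74.8 and 65.2 CPM in S34F and 61.9, 55.0 and 60.2 in WT (log2 fold change 0.23 ± 0.10 SE). Nop16 and Ebna1bp2 were also higher in every S34F library, and Nol9, the kinase of the second internal spacer, was lower in every one (log2 fold change -0.17 ± 0.09 SE). Mrto4, a placeholder for the stalk protein P0, had 67.3, 84.6 and 68.0 CPM in S34F and 64.1, 79.9 and 96.9 in WT, and Tex10, a partner in the 60S maturation complex with Nol9, had 77.6, 76.8 and 73.5 against 70.5, 86.7 and 78.6. Both overlapped, and the fold change of each changed sign when a single WT library was left out (Mrto4 to 0.03 without replicate 3 and Tex10 to 0.03 without replicate 2, on the log2 scale).

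**Figure D3:**
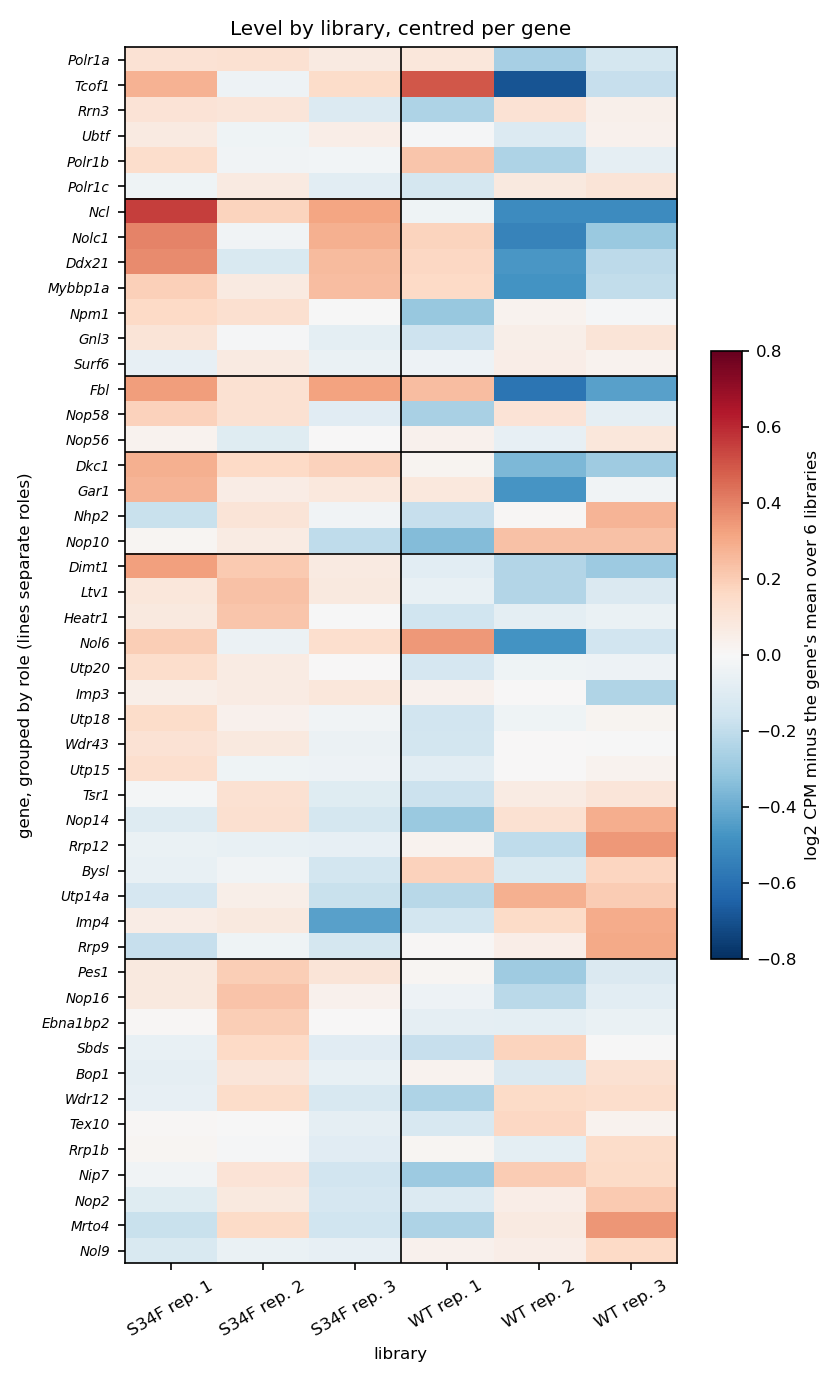
Log2 CPM of each of the 48 genes (rows, grouped by role) in each library (columns), centred on the gene's mean over the 6 libraries. Tcof1, Fbl, Nolc1 and Nol6 show WT replicate 1 on the S34F side of the other WT libraries, and Ncl is high in all 3 S34F libraries.

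The spread within WT was larger than within S34F. The median SD of log2 CPM over the members was 0.18 among WT libraries and 0.10 among S34F libraries, against 0.19 and 0.13 over the 12139 genes above 1 CPM. The widest member in WT was Tcof1 (0.59), followed by Fbl (0.44). Across the members, the log2 difference between WT replicates 2 and 3 followed the GC content of the transcripts (Spearman rho -0.65, n = 48 genes of the same libraries), as it did across all genes (rho -0.44, n = 11424). Between WT replicates 1 and 2 rho with GC content was 0.38 in the members and 0.33 over all genes, and with transcript length 0.35 and 0.22. Between S34F replicates 1 and 2 these were -0.16 and -0.21 with GC content, and 0.39 and 0.25 with length. For the difference between the genotypes they were -0.25 and -0.16 with GC content, and 0.20 and 0.22 with length. Without WT replicate 1, edgeR called 1172 genes (8.42%), among them 5 members (Dkc1, Fbl, Mybbp1a, Ncl and Nolc1), all higher (6.72% of all genes were called higher), and DESeq2 called 2517 genes (21.4%), among them 13 members, 1 lower (Utp14a) and 12 higher (Ddx21, Dimt1, Dkc1, Fbl, Ltv1, Mybbp1a, Ncl, Nol6, Nolc1, Pes1, Polr1a and Tcof1). At an unadjusted p under 0.05 that edgeR fit had 16 members (33.3%) against 26.2% of all genes. DESeq2 with the replicate number as a block called 440 genes (3.35%), among them 4 members.

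Splicing of the members was tested in 4 ways on junction reads: the choice between acceptors of a shared donor, the choice between donors of a shared acceptor, inclusion of cassette exons, and paired alternative 3' splice sites. Of 29709 acceptor choices, 135 lay in 29 members, and of 30084 donor choices 122 lay in 27 members. There were 26 cassette exons in 11 members and 38 pairs of 3' splice sites in 18. Many of these share a junction and are not independent. No member choice passed edgeR in any of the 4 tests, which called 0 acceptor choices (0%), 3 donor choices (0.00997%), 2 cassette exons (0.0275%) and 0 pairs of 3' splice sites (0%) over all genes. At an unadjusted p under 0.05 there were 21 member acceptor choices (15.6% against 7.51% of all), 11 donor choices (9.02% against 6.42%), 4 cassette exons (15.4% against 10.8%) and 5 pairs (13.2% against 7.11%). DESeq2 called 11 member acceptor choices in 6 genes (368 of all, 1.24%), 2 donor choices, both of Ubtf (236, 0.816%), 0 cassette exons (104, 1.82%) and 3 pairs of 3' splice sites in Dimt1, Nop58 and Tex10 (85, 1.48%). In the authors' deposited table, 10 junctions of 9 members (Ubtf, Mrto4, Tex10, Dimt1, Gnl3, Utp14a, Utp20, Rrp12 and Nop58) had a DEXSeq adjusted p under 0.05, which was 1.17% of the 852 member junctions tested, against 512 of 150691 (0.34%) in all. The members were chosen with earlier results of these data known. The member shares, here and at the gene level, are therefore a description and do not test an excess.

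The acceptors behind these calls are shown because the letter before the AG is the base that U2AF1 contacts. Each line holds the last 25 bases of the intron and the first 10 of the exon, 5' to 3' on the gene's strand (build mm9), with the last 3 intron bases, positions -3 to -1, in capitals.
Ubtf usual acceptor, chr11:102175527-102175561 (-): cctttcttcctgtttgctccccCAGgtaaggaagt
Ubtf acceptor after skipping, chr11:102175358-102175392 (-): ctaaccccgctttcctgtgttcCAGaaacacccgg
Tex10 usual acceptor, chr4:48472965-48472999 (-): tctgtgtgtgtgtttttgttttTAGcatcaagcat
Tex10 downstream acceptor, chr4:48472862-48472896 (-): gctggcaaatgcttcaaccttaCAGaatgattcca
Dimt1 usual acceptor, chr13:107741873-107741907 (+): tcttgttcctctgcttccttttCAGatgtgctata
Dimt1 downstream acceptor, chr13:107741895-107741929 (+): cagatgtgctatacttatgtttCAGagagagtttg
Mrto4 usual acceptor, chr4:138905623-138905657 (-): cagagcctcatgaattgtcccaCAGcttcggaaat
Mrto4 acceptor inside the exon, chr4:138905564-138905598 (-): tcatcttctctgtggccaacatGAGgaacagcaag
Rrp12 usual acceptor, chr19:41952574-41952608 (-): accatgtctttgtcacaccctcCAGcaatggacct
Rrp12 intronic acceptor, chr19:41952654-41952688 (-): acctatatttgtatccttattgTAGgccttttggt
Gnl3 usual acceptor, chr14:31827404-31827438 (-): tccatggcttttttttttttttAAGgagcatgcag
Gnl3 downstream acceptor, chr14:31827297-31827331 (-): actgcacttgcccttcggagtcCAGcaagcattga
Nop58 intronic acceptor, downstream, chr1:59749431-59749465 (+): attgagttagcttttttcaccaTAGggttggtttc
Nop58 intronic acceptor, upstream, chr1:59749296-59749330 (+): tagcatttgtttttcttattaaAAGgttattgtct
Nop2 usual acceptor, chr6:125090528-125090562 (+): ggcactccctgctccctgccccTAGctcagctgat
Nop2 downstream acceptor, chr6:125090533-125090567 (+): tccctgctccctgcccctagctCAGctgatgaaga

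Ubtf gave the lowest p-values of any member. The junction that skips an 84 nt coding exon had 18, 23 and 19 reads in the S34F libraries and 0, 0 and 0 in the WT libraries. This was 2.35%, 3.61% and 2.99% of the reads that leave the upstream donor in S34F, and in WT 0 of 2813 reads, which allows a share of up to 0.107% (counting error only). Every S34F library had the form and no WT library did, including WT replicate 1, which had 596 reads from this donor and allows up to 0.503%. The adjusted p was 0.424 by edgeR, 6.1e-05 by DESeq2 and 0.0388 by limma. With a library left out, DESeq2 gave an adjusted p of 0.000354 to 0.00501 in 4 fits. Without S34F replicate 2 or 3 the form was under the minimum of 1% of reads and was not tested. The form passed that minimum through its S34F reads alone. The authors' deposited table gives this junction an adjusted p of 3.78e-08. Both acceptors have C at position -3, so the letter does not separate them. The skipped exon keeps the reading frame, its length being a multiple of 3, and is printed whole in capitals.
Ubtf skipped exon, chr11:102175453-102175536 (-): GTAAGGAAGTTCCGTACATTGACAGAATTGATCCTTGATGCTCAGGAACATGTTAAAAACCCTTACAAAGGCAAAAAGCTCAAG

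Another Ubtf exon separates its known protein forms. The 111 nt exon encodes part of an HMG box that UBF1 carries and UBF2 lacks, and UBF1 is the form known for activating ribosomal DNA. Inclusion was 51.4%, 49.0% and 45.8% in S34F and 42.7%, 39.4% and 39.6% in WT. Every S34F library was above every WT library, with means of 48.7 ± 2.81% and 40.6 ± 1.84% (SD, n = 3) over at least 1185 reads per library. The difference of 8.16 percentage points had an unadjusted p of 0.0366 and an adjusted p of 0.427 by edgeR, and 0.309 by DESeq2. Total Ubtf differed by only 0.06 on the log2 scale. The exon is printed whole in capitals.
Ubtf UBF1 exon, chr11:102172240-102172350 (-): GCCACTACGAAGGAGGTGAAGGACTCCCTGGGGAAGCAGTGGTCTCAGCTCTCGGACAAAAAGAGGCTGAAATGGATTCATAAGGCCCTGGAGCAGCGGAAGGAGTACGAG

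**Figure D4:**
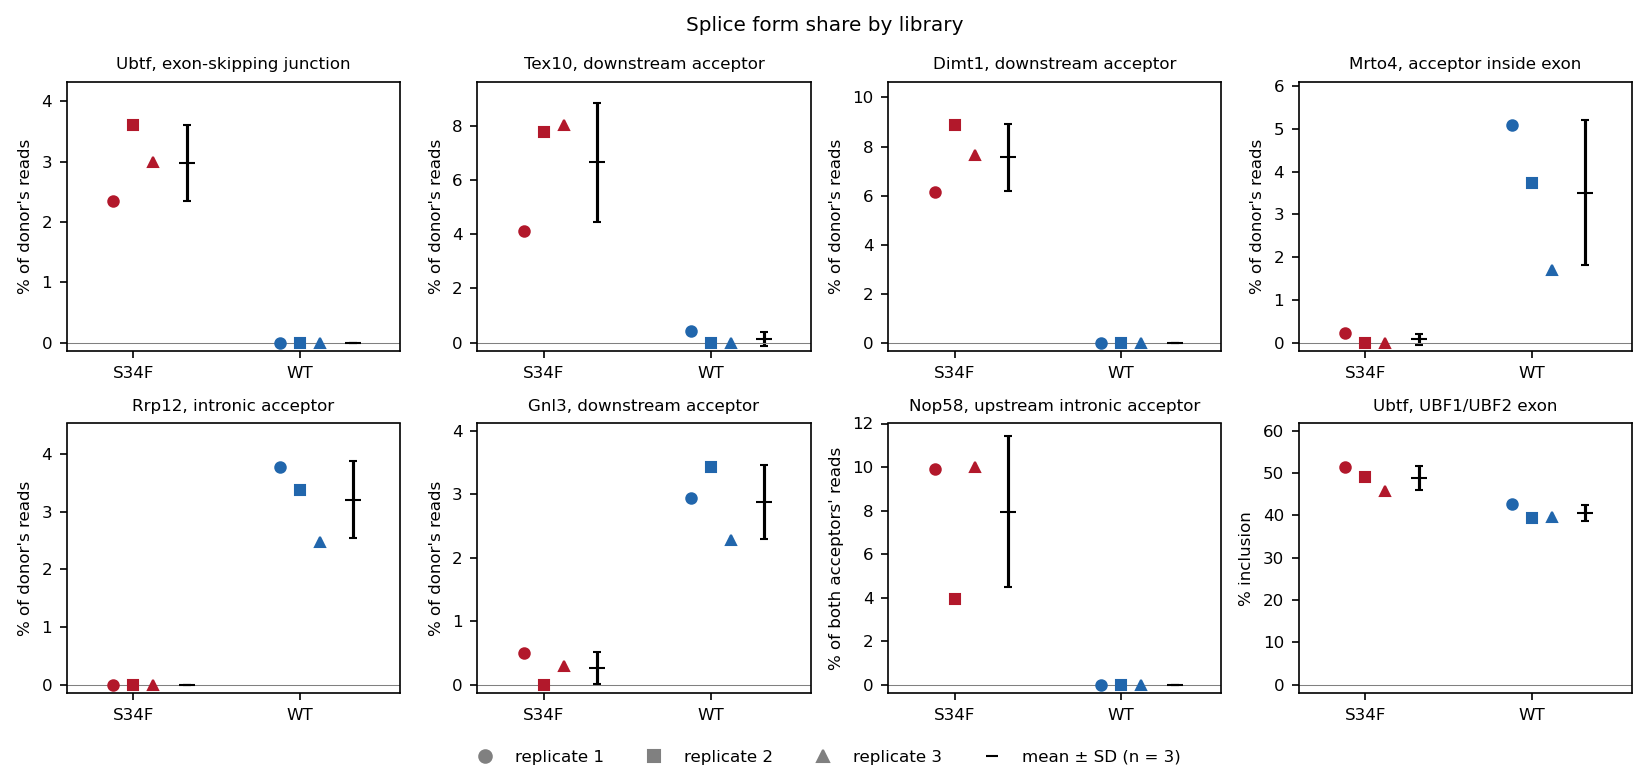
Share of the named splice form in each library in percent (y axes, 0 included), with marker shapes for replicate numbers and black bars for mean ± SD (n = 3). The Ubtf, Tex10, Dimt1 and Nop58 forms appear in S34F and are at or near 0 in WT, the Mrto4, Rrp12 and Gnl3 forms do the reverse, and inclusion of the UBF1 exon lies between 39.4% and 51.4%.

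Tex10 used an acceptor 103 nt downstream of the usual one in S34F. It took 12, 14 and 17 reads in S34F and 1, 0 and 0 in WT, which was 4.12%, 7.78% and 8.02% of the donor's reads against 0.422%, 0% and 0%. The groups did not overlap. The usual site has T at position -3 and the downstream site C, and 103 nt is not a multiple of 3. The adjusted p of the pair of sites was 0.314 by edgeR and 0.00752 by DESeq2. The DESeq2 call of the pair was lost without WT replicate 2 (0.0785) and without WT replicate 3 (0.0848), and the pair was not tested without S34F replicate 3. As an acceptor choice (DESeq2 adjusted p = 0.0111) it was also lost without S34F replicate 2 (0.0785) and S34F replicate 3 (0.0660). Both acceptors are annotated. The authors also called another, annotated Tex10 junction. It had 161, 155 and 158 reads in S34F and 224, 368 and 444 in WT (DEXSeq log2 ratio -0.53, adjusted p = 0.0191).

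Dimt1 showed a like form at an unannotated acceptor 22 nt downstream, inside the coding exon. It had 13, 15 and 13 reads in S34F and 0, 0 and 0 in WT. The shares were 6.16%, 8.88% and 7.65% in S34F, and 0 of 517 reads in WT allows up to 0.580%. WT replicate 1, with 115 reads, allows up to 2.61%, so its limit is below every S34F share. Both acceptors have C at position -3, and 22 nt is not a multiple of 3. The adjusted p of the pair was 0.314 by edgeR, 0.000747 by DESeq2 and 0.0418 by limma, and DESeq2 called it in each of the 6 fits that left out a library (0.00263 to 0.0182). The gene level of Dimt1 was higher in S34F, as given above, and both measures come from the same libraries.

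Other choices ran toward WT. In Mrto4 an unannotated acceptor 59 nt inside a coding exon, with G at position -3, had 2, 0 and 0 reads in S34F and 40, 50 and 32 in WT. The shares were 0.226%, 0% and 0% against 5.09%, 3.73% and 1.71%. WT replicate 1, whose depth is closest to the S34F libraries, had the highest share. The adjusted p was 0.431 by edgeR and 0.0169 by DESeq2, and the DESeq2 call was lost without S34F replicate 2 (0.118), S34F replicate 3 (0.0805) or WT replicate 2 (0.0578). A further unannotated acceptor 65 nt inside the same exon, had 23, 0 and 3 reads in S34F and 3, 0 and 50 in WT, with no order by genotype. That other site was chosen for mention after its values were seen.

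In Rrp12 an unannotated acceptor in the intron, 80 nt before the usual one, had 0 reads in each S34F library and 8, 8 and 12 in WT. The WT shares were 3.77%, 3.38% and 2.47%, and 0 of 503 reads in S34F allows up to 0.596%. This intronic site has T at position -3 and the usual site C. The adjusted p was 0.473 by edgeR and 0.0297 by DESeq2, and DESeq2 lost the call in all 6 fits that left out a library (0.0533 to 0.203). In Gnl3 an unannotated acceptor 107 nt downstream of the usual one had 4, 0 and 2 reads in S34F and 23, 37 and 35 in WT. Those were 0.5%, 0% and 0.292% of the donor's reads against 2.95%, 3.43% and 2.27%, with no overlap. The usual Gnl3 site has A at position -3 and the other C. The adjusted p was 0.473 by edgeR and 0.0366 by DESeq2, and this call too was lost in all 6 fits (0.0820 to 0.191).

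Nop58 carried choices of several kinds. Within an intron it uses a pair of unannotated acceptors outside the annotated coding sequence, and the upstream site had 10, 3 and 7 reads in S34F and 0, 0 and 0 in WT. The upstream share of the pair was 9.90%, 3.95% and 10% in S34F, and 0 of 521 reads in WT allows up to 0.576%. As a share of all reads from the donor, most of which join the next coding exon, it was 0.487%, 0.183% and 0.468% in S34F. The upstream site has A at position -3 and the downstream site T. The adjusted p was 0.423 by edgeR and 0.00422 by DESeq2. Inclusion of the 117 nt exon that starts at the downstream site was 6.81%, 8.23% and 7.99% in S34F and 9.82%, 9.02% and 12.6% in WT, without overlap (unadjusted p = 0.0497, adjusted p = 0.463 by edgeR).

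At another Nop58 intron, an unannotated donor 8 nt from the usual one had 0, 4 and 1 reads in S34F and 4, 85 and 145 in WT. WT replicate 1 was at the S34F level, with 0.264% against 3.22% and 5.10% in the other WT libraries and at most 0.252% in S34F. The donor choice had an adjusted p of 0.648 by edgeR and 0.135 by DESeq2. Leaving out WT replicate 1 gave a DESeq2 adjusted p of 0.00212.

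In Nop2, which encodes a 28S rRNA cytosine methyltransferase, the usual acceptor has T at position -3 and an unannotated one 5 nt downstream has C. The downstream site had 17, 19 and 21 reads in S34F and 12, 15 and 20 in WT. Its share was therefore 3.85%, 3.60% and 4.31% in S34F and 2.41%, 2.08% and 2.02% in WT, without overlap (adjusted p = 0.524 by edgeR). A cassette exon of Nop56 (119 nt form) was included at 3.50%, 3.83% and 3.91% in S34F and 5.034%, 4.609% and 5.196% in WT, also without overlap (adjusted p = 0.424 by edgeR). A longer 158 nt form of the same Nop56 exon had 3.19%, 3.12% and 3.46% against 4.36%, 4.26% and 4.21%. The acceptor of both forms has T at position -3. At a Utp20 acceptor, a minor unannotated donor had 1, 0 and 0 reads in S34F and 2, 7 and 6 in WT (adjusted p = 0.687 by edgeR). The authors' Utp20 call is another, annotated junction. It had 335, 287 and 305 reads in S34F and 221, 297 and 349 in WT (DEXSeq log2 ratio 0.49, adjusted p = 0.0186).

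Further forms were chosen for mention after their values were seen. At an upstream Dimt1 intron, an unannotated intronic acceptor had 11, 9 and 11 reads in S34F and 3, 0 and 0 in WT (adjusted p = 0.601 by edgeR), again higher in every S34F library. In Rrp9 a junction joining a known donor and a known acceptor in a new pair had 2, 4 and 2 reads in S34F and 12, 10 and 18 in WT, which was 0.935%, 1.57% and 0.881% of the donor's reads against 3.48%, 2.66% and 3.93% (adjusted p = 0.593 by edgeR). For Utp14a, a small subunit processome gene, the authors' deposited table gives an unannotated acceptor with 2, 18 and 16 reads in S34F and 0, 0 and 0 in WT an adjusted p of 0.0126. S34F replicate 1 was nearest to WT there.

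Over the 38 tested pairs of 3' splice sites in members, 21 had T at position -3 in exactly 1 of the sites. The T site was used less in S34F in 13 of these (61.9%) and more in 8. Over all genes the T site was used less in 68.7% of 2130 such pairs, a higher share than in the members. Among pairs with an unadjusted p under 0.05, the T site was the one less used in 3 of 3 member pairs (Tex10, Nop58 and Nop2) and in 184 of 204 pairs over all genes (90.2%). The Tex10 and Nop58 pairs passed the read minimum through S34F reads at the site without T. Their direction was therefore fixed by that minimum, and 3 of 3 is no test of the letter. How many of the 204 pairs passed in this way was not counted. These are counts over pairs, some of which share a site.

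Over all member junctions, 105 of 853 were not annotated as a donor and acceptor pair. They held 0.422%, 0.318% and 0.282% of the members' junction reads in S34F and 0.468%, 0.496% and 0.480% in WT, with no overlap. An unannotated Npm1 acceptor, with T at position -3 like the usual acceptor beside it, gave 26.4%, 3.22% and 2.13% of these reads in S34F and 25.9%, 24.0% and 23.8% in WT. That site took 4.15%, 0.338% and 0.226% of its donor's reads in S34F and 4.37%, 4.17% and 3.73% in WT. S34F replicate 1 was at the WT level (adjusted p = 0.665 for the acceptor choice by edgeR), and without that library edgeR called the Npm1 pair of sites. That fit called 3 of 5745 pairs over all genes (0.0522%), and it leaves out the S34F library that lay with WT. Without Npm1 the unannotated shares stood at 0.430%, 0.424% and 0.377% for S34F against 0.465%, 0.546% and 0.522% for WT. Over all genes the shares overlapped, at 0.803%, 0.755% and 0.757% against 0.781%, 0.760% and 0.754%.

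Junction zeros need a caution in these libraries. WT replicate 3 had 5670 junctions without a read where at least 10 would be expected from its depth and the other libraries, against 477 to 1465 in the other libraries. Among member junctions these were 16 in WT replicate 3 and 4 to 9 elsewhere. The Ubtf, Dimt1 and Nop58 forms were at 0 in all 3 WT libraries. Without WT replicate 3 their DESeq2 adjusted p was 0.00467, 0.0172 and 0.0499. Each form passed the read minimum through its S34F reads alone. The same limit holds for other named forms. Those of Tex10 and of the upstream Dimt1 intron passed through S34F and were under the minimum in WT. The forms of Mrto4, Rrp12, Gnl3 and Utp20 and the Nop58 donor passed through WT and were under it in S34F. The part of junction zeros in the splicing results was not tested.

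A wider list of 108 other ribosome biogenesis genes, of which 104 were tested, had a median log2 fold change of 0.02. At an unadjusted p under 0.05, 12 were higher (11.5% against 4.39% of all genes) and 2 lower (1.92% against 4.7%), and edgeR called 0. In 16 of them (15.4% against 7.16%) every S34F library was above every WT library. In 4 of the 104 every one was below, a pattern found in 8.47% of all genes. Rbm34, a nucleolar RNA-binding protein gene, had 44.2, 41.8 and 39.5 CPM in S34F and 32.9, 23.1 and 24.4 in WT (log2 fold change 0.64 ± 0.15 SE, adjusted p = 0.536 by edgeR, 0.0306 by DESeq2). It was the 1 gene of the list called by DESeq2. Pno1 (log2 fold change 0.49), Nol11 (0.47), Lsg1 (0.37) and Nol8 (0.39), which act in subunit maturation or ribosomal DNA transcription, were higher without overlap. The 4 lower without overlap were Urb1 (-0.38), Xrn2 (-0.35), Ppan (-0.29) and Rcl1 (-0.16), of which Xrn2 is the exonuclease that trims ribosomal spacers.

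The Myc network holds Myc, its relatives and the partners that compete for Max. Of its 11 genes, all tested, 0 were higher (4.39% of all genes) and 2 were lower (4.7% of all genes) at an unadjusted p under 0.05, and the median log2 fold change was -0.09. Myc itself had 124, 127 and 136 CPM in S34F and 137, 94.0 and 115 in WT, with overlap (log2 fold change 0.16 ± 0.14 SE, adjusted p = 0.695 by edgeR). Mycl1 was at 3.43, 2.16 and 6.00 CPM against 10.7, 8.37 and 7.05 (log2 fold change -1.17 ± 0.37 SE, unadjusted p = 0.0135), and the Max partner Mxd3 at a log2 fold change of -0.61. Mycl1, Mxd3 and Mxd4 (log2 fold change -0.20) were lower without overlap, a pattern found in 8.47% of all genes. Max was higher without overlap, as were 7.16% of all genes (log2 fold change 0.34 ± 0.15 SE, adjusted p = 0.552 by edgeR).

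The E-box CACGTG, the motif bound by Myc with Max, was searched in RefSeq promoter windows of 250 bases before to 50 after each start (GRCm38.p6). The motif is its own reverse complement, so each match is on both strands. Of 41 members with a window, 11 (26.8%) held it, against 2187 of 27025 genes (8.09%). Those 27025 are all genes with a window and not the 13905 genes tested here. The share over the genes tested was not counted. The 11 were Imp4, Ltv1, Mybbp1a, Nop2, Pes1, Rrn3, Tex10, Tsr1, Utp18, Utp20 and Wdr43. Of the 5 members with an unadjusted p under 0.05, Ltv1 and Pes1 held the motif and Ncl, Dkc1 and Dimt1 did not. A match is a description of these letters in these windows.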

How the data were processed

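Libraries were rRNA-depleted, stranded and sequenced as paired reads of 100 bp. Reads were aligned to mm9 with TopHat 2.0.8 per the labels, and Bowtie2 2.1.0, Cufflinks 2.1.1, HTSeq 0.5.4p1 and DESeq2 1.6.1 are named in the submitters' processing notes. The authors deposited raw counts per gene and per junction, FPKM values, and their own fold ratios, log2 ratios and p-values, named DESeq or DEXSeq per the file headers. Strand use in counting is not given in the sources used here. Counts were tested with edgeR 4.0.16 (quasi-likelihood, TMM, filterByExpr, R 4.3.3), adjusted over all features. Splicing was tested as the interaction of genotype and form with a term per library, at 20 or more reads per library and 1% (acceptors, donors) or 2% (cassette exons, paired sites) in each form. DESeq2 1.42.0 and limma 3.58.1 (0.5 added to counts), other scalings and filters, a replicate block and left-out libraries were alternatives; DESeq2 with a block or a left-out library was added after seeing the data. Junction positions are the exon bases beside the intron, as 99.985% of 149533 junctions had GT and AG after a shift of 1 base. Scripts were tested on simulated data. Values in every library are given for the 8 members of lowest p, the 3 most and 3 least abundant per length, the lowest p of each role, members called by edgeR or DESeq2, and the 4 events of lowest p per splicing test. Members and lists were chosen with earlier results of these data known. Separate pools are described, so p-values measure the spread between these libraries; intervals and limits cover counting error only.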

Additional observations from a re-analysis of the deposited data

How the results depend on the processing

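Against 0 members past the edgeR threshold, DESeq2 called 1 and DESeq2 with the replicate block 4 (Dkc1, Fbl, Ncl and Nolc1). Leaving out 1 library gave 0 to 5 by edgeR and 0 to 13 by DESeq2, the highest of each without WT replicate 1. The 5 members with an unadjusted p under 0.05, all higher, were 7 by DESeq2 and 8 with the replicate block by either tool, all higher. With a library left out they were 3 to 16 by edgeR (3 to 13 higher, 0 to 3 lower). By DESeq2 they were 3 to 17 (3 to 13 higher, 0 to 4 lower). Over all genes the shares were 9.1% in the main fit (10.3% by DESeq2) and 12.7% with the block (13.6% by DESeq2). With a library left out they were 3.79% to 26.2% by edgeR and 4.47% to 28.6% by DESeq2. Shares and member counts were highest without WT replicate 1. The block itself called 5 genes and 0 members by edgeR. Libraries of the same number deviated together with r of 0.276, 0.342 and 0.061, the highest r for replicates 1 and 2. Between unlike numbers r ran from -0.399 to 0.171, and S34F replicate 3 was closer to WT replicate 1 (0.130). The labels do not say what the numbers mark, so the main fit did not pair them and the block is an alternative. A factor shared by libraries of the same number was not tested.

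Against 0 member acceptor choices by edgeR, DESeq2 called 11, limma 4, DESeq2 with the block 5, and DESeq2 with a library left out 2 to 11 (10 without S34F replicate 1, 6 without WT replicate 2, 5 without WT replicate 3). Over all acceptor choices these were 1.24%, 0.199%, 0.412% and 0.399% to 2.27%. Acceptor and donor choices are counted as entries, so a choice between only 2 sites counts for both. Member donor choices were 2, 2, 3 and 0 to 4 in the same order (over all, 0.816%, 0.219%, 0.209% and 0.358% to 1.57%). Member pairs of 3' splice sites were 3, 1, 3 and 1 to 4 (over all, 1.48%, 0.139%, 0.695% and 0.824% to 2.8%). By edgeR with a library left out they were 0 to 1 (over all, 0% to 0.0522%). With a library left out, the edgeR log2 fold change of Gnl3 ran from -0.0658 (without WT replicate 1; -0.0424 without S34F replicate 1) to 0.0637, that of Rrp12 from -0.2551 to 0.0265 (without WT replicate 3), that of Mrto4 from -0.2700 to 0.0255 (without WT replicate 3) and that of Tex10 from -0.1214 to 0.0268 (without WT replicate 2). DESeq2 turned the same signs, to -0.0674 and -0.0455 for Gnl3, 0.0341 for Rrp12, 0.0325 for Mrto4 and 0.0338 for Tex10. The cause was not tested. Scaling, filters and stricter read minimums left all member counts within 1.5 times, and 29 members lay above 0 under each scaling. The stricter read minimums were run with edgeR only. As edgeR called 0 member events at the usual minimums, these fits could not show a call being lost. The DESeq2 splicing calls were not tested at stricter minimums. Splice forms with few reads per library are limited by depth.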
